A study of Homo sapiens with 21 samples.

Results

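The genes described here are 10 components of the circadian clock: CLOCK, PER1, PER2, PER3, CRY1, CRY2, NR1D1, NR1D2, DBP and BHLHE40. They were taken by symbol and matched to Ensembl gene IDs, without the version, in a table of 37637 features, and all 10 were found. All 10 also passed the filter on low counts that left 17468 features for testing. The table holds RNA-seq read counts of HepG2 cells, an established human line grown from a liver tumour and used as a stand-in for hepatocytes. Cells received caffeine, a methylxanthine that blocks adenosine receptors, at 0, 0.01, 0.1, 1, 10, 100 or 1000 µM for 6 h, and the comparison of the doses with 0 µM asks which transcripts respond. Each of the 7 groups has 3 samples, which the series text calls biological replicates, so that 21 libraries were compared. In all groups, the controls included, the medium with serum was replaced by fresh DMEM without serum, and the control group is labelled as untreated at a caffeine dose of 0 µM. The design text of the series names coumarin for the control group; the labels of the samples were followed. All libraries come from 1 cell line and 1 time after treatment, so the phase of a daily rhythm cannot be read from them.

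The clock is a loop of transcription and translation that runs in most cells of the body, in the liver in step with feeding. CLOCK pairs with BMAL1 on E-box sequences and activates the PER and CRY genes, whose proteins return to the nucleus and block the pair, and the NR1D genes, whose REV-ERB proteins repress BMAL1 and CLOCK transcription. DBP is an output activator that binds D-box sequences, and BHLHE40 (DEC1) is a repressor that competes for E-boxes.

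Promoter windows from RefSeq (GRCh38.p14; 250 bases before to 50 bases after an annotated start) were found for all 10 genes, 14 windows in all, since some genes have several starts. Both strands were searched for the E-box CACGTG, the D-box TTATGTAA or TTACGTAA, the core AGGTCA of the element bound by REV-ERB and ROR receptors, and the cAMP response element TGACGTCA. The E-box letters were present in windows of PER1, NR1D2 and BHLHE40 and in 7.26% of all 35116 windows. D-box letters were present in windows of PER2, PER3 and NR1D2 and in 1.01% of all windows. The AGGTCA core was present in windows of PER1 and CRY2 and in 13.8% of all windows, while TGACGTCA was in none of the 14 and in 1.85% of all. The windows of CLOCK, CRY1, NR1D1 and DBP held none of these letters, and no pair of matches in the 10 genes overlapped. A match describes the letters in this window and was not tested as a binding site.

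Sequences are printed for the genes that differed at 1000 µM from the lowest doses and held an E-box or a D-box: PER1, a repressor that fell, PER3, which also fell, and NR1D2, a repressor that rose. BHLHE40 met the same rule and is named only. Each run holds the bases from 250 to 51 before the start, 5′ to 3′ on the gene's strand, and capitals mark the motifs. In PER1 (chr17:8152455-8152654, minus strand) these are the E-box, 173 bases before the start, and the AGGTCA core read on the other strand, 144 bases before it. The PER1 run lies inside the annotated gene, which reaches to chr17:8156506, so it is not upstream of the whole gene. In PER3 (chr1:7784041-7784240, plus strand) it is a D-box, 177 bases before the start. In NR1D2 (chr3:23945871-23946070, plus strand, the second of its starts, inside an intron of the gene) these are a D-box read on the other strand, 194 bases before the start, and a pair of E-boxes, 155 and 105 bases before it. None of these bases is exonic in GENCODE v29.
PER1: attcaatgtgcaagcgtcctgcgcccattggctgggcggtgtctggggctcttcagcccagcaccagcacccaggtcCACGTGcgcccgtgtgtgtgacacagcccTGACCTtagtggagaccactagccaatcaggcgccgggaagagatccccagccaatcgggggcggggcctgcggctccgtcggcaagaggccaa
PER3: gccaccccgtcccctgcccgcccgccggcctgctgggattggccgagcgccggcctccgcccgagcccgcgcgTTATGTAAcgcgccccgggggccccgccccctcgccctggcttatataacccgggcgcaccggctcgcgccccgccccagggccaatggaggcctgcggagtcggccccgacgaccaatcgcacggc
NR1D2: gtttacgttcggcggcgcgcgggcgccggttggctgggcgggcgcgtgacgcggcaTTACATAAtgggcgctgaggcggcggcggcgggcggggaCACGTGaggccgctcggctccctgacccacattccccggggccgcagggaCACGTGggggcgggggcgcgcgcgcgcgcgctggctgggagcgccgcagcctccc

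The 21 libraries held between 28043623 and 40827833 counts (median 32497612), and levels are given as CPM, the usual depth-normalised read count, after TMM scaling. A count of 0 would allow up to 3 counts, or 0.0735 to 0.107 CPM depending on the library, and the lowest value of a clock gene described here, DBP at 1000 µM, rested on 44 to 51 counts. The labelled cell type was checked against markers: all 10 hepatocyte markers were present, with ALB from 4745 to 7145 CPM and HNF4A from 312 to 397 CPM. Of the markers of fibroblasts, leukocytes and endothelium, COL1A2 had 0 counts in all libraries and COL3A1 and PTPRC 0 to 1 counts, VWF 0 to 5 and CDH5 0 to 9, while PDGFRB had 123 to 359 counts and CD68 1954 to 3659. PECAM1 was not analysed here. Mitochondrially encoded genes made up 4.95 to 14.2% of a library. In these bulk samples, fewer cells with a transcript and less of the transcript per cell cannot be told apart.

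Per kilobase of exon, BHLHE40 stood highest among the 10 genes in the controls, at 5.96 ± 0.65 CPM per kb (SD, n = 3). CRY1 (3.39 CPM per kb), NR1D1 (3.17) and NR1D2 (3.07) followed, and their libraries overlapped from each to the next. CRY2 (2.20), PER1 (1.69), PER2 (1.55) and CLOCK (1.33) came below them, with overlap of PER1 with PER2 and of PER2 with CLOCK. DBP (0.547 CPM per kb) and PER3 (0.493) were lowest on this scale. At 1000 µM, BHLHE40 was still highest at 7.06 CPM per kb. NR1D2 (5.83) and CRY1 (5.53), whose libraries overlapped, stood next, CLOCK (2.31) stood above PER2 (1.93) and PER1 (1.26), and DBP (0.209) below PER3 (0.484). These are levels on a per-length scale, and each length is the union of all exons of the gene in GENCODE v29. For DBP this union is 6544 bases in 2 merged exons of chr19:48630030-48637438, which is most of the gene. A shorter transcript would give DBP a higher value, so its low rank depends on the length used.

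Each dose was compared with 0 µM by edgeR's quasi-likelihood test, and a gene is called where its p-value, adjusted by the Benjamini-Hochberg method over all 17468 features, is under 0.05. The comparisons share their 3 control libraries and are therefore not independent of one another. At 1000 µM 5 of the 10 clock genes were called, beside 41.2% of all features, with CLOCK, CRY1 and NR1D2 higher (20.6% of all features were higher) and PER1 and DBP lower (20.6%). The median log2 fold change of the 10 was 0.23 against -0.03 over all features. At 10 µM 5 clock genes were called, beside 22% of all features, with CLOCK, PER2, PER3 and NR1D2 higher (11.3%) and DBP lower (10.7%). At 10 µM the median of the 10 was 0.32 against -0.009 over all features. So the count at 1000 µM was close to the background share, and that at 10 µM was above it. Of the 10 hepatocyte markers, 5 were called at 1000 µM: APOA1 (log2 fold change -1.04, edgeR adjusted p 0.000767), APOA2 (-0.83, 0.000583), AFP (-0.69, 4.48e-05) and FGB (-0.33, 0.00362) were lower and APOB (0.56, 0.0163) higher. The fibroblast marker PDGFRB rose from 4.45 ± 0.31 to 8.59 ± 0.27 CPM (SD, n = 3; edgeR adjusted p 7.63e-07), while COL1A2 and COL3A1 had at most 1 count in a library. Hepatocyte markers were called at lower doses too. At 0.01 µM APOA1 (-0.83, edgeR adjusted p 0.0392) and AFP (-0.37, 0.0453) were lower and APOB (0.80, 0.0392) higher. At 10 µM APOA1 (-0.945, 0.00612), APOA2 (-0.54, 0.0236) and AFP (-0.69, 0.00359) were lower. APOB (0.78, 0.00679) and HNF4A (0.22, 0.0401) were higher there. At 100 µM APOA1 (-0.74, 0.0439) and AFP (-0.62, 0.00537) were lower. The part of these shifts in the clock gene values was not tested.

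At 0.01 µM CLOCK and NR1D2 were called, both higher, beside 4.95% of all features (2.87% higher, 2.08% lower). Neither was called there with the mitochondrial share as a covariate or with the 6 samples alone. At 100 µM the same pair, CLOCK and NR1D2, was called as higher, beside 6.02% of all features (2.74% higher, 3.27% lower). At 0.1 µM and at 1 µM 0 of the 10 were called, where 0% of all features were called in either direction by edgeR. At 0.1 µM 5 of the 10 genes had an unadjusted p under 0.05, beside 15.2% of all features, and at 1 µM 6 had, beside 22.8%. DESeq2 called 4 of the 10 at 0.01 µM, beside 12.5% of all features, 1 at 0.1 µM (2.93%) and 5 at 1 µM (8.08%). Those at 0.01 µM were CLOCK, PER2, PER3 and NR1D2, and that at 0.1 µM was CLOCK. Those at 1 µM were CLOCK, PER2, PER3, CRY2 and NR1D2. Treated and control libraries did not overlap for 5 clock genes at 0.01 µM, beside 32% of all features. The corresponding numbers were 5 genes for 0.1 µM (22.5% of all features), 6 for 1 µM (23.6%), 6 for 10 µM (45.8%), 5 for 100 µM (43%) and 7 for 1000 µM (53.2%).

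As the comparisons above share their controls, 1000 µM was also compared with the mean of 0.01, 0.1 and 1 µM, a reference of 9 libraries that holds no control. In this comparison 6 clock genes were called, beside 30.1% of all features. CRY1, NR1D2 and BHLHE40 were higher (16.2% of all features) and PER1, PER3 and DBP lower (14%), and 4 genes, CRY1, NR1D2, PER1 and DBP, did not overlap with the 9 libraries (17.7% of all features). A test among the 7 groups called 6 clock genes, CLOCK, PER1, PER3, CRY1, NR1D2 and DBP, beside 28.1% of all features. A slope over the dose ranks, numbered from 0 to 6, was called for 5 clock genes, beside 29% of all features, rising for CLOCK, CRY1, NR1D2 and BHLHE40 (14.5%) and falling for DBP (14.5%).

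The 10 genes thus had more than 1 shape over the doses. The 3 controls lay outside all 18 treated libraries for CLOCK and PER2, where they were lowest, and for DBP, where they were highest, beside 4.38% of all features. The 3 libraries at 1000 µM lay outside all 18 others for CRY1 and NR1D2, where they were highest, and for PER1 and DBP, where they were lowest, beside 13.4% of all features. DBP was in both groups. CRY2 and NR1D1 were called in none of these comparisons by the edgeR fit of all libraries.

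**Figure D1:**
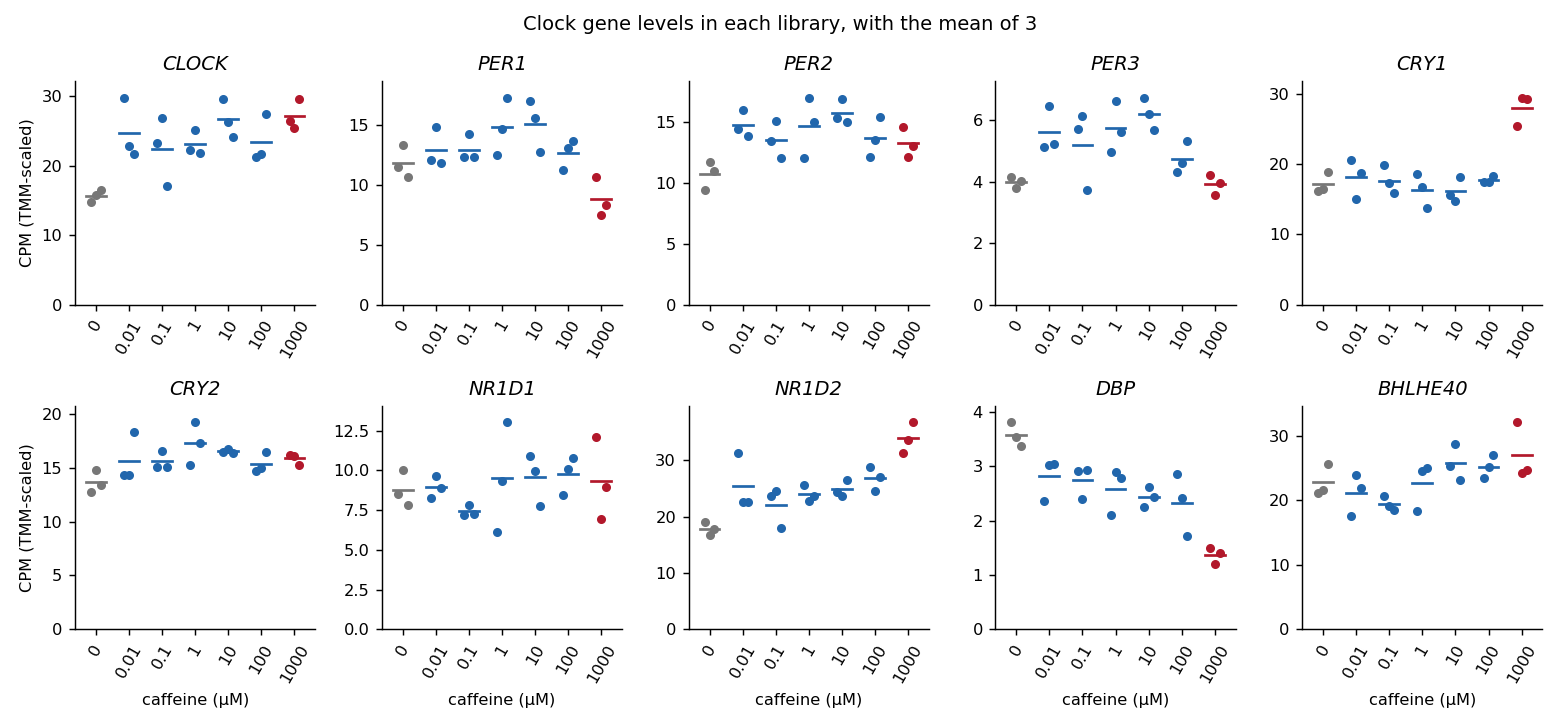
Level of each clock gene in CPM after TMM scaling (vertical axes from 0) in the 21 libraries, by caffeine dose in µM on evenly spaced steps. Points are single libraries and bars the means of 3; for CRY1 the 3 libraries at 1000 µM lie between 25.4 and 29.4 CPM, above all others, and for CLOCK the 3 controls lie between 14.7 and 16.6 CPM, below all others.

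CLOCK (ENSG00000134852.15, chr4:55427903-55547138, minus strand, GRCh38), the activator of the loop, was higher in all 18 treated libraries than in the controls. Its levels were 14.7, 15.7 and 16.6 CPM at 0 µM. They were 29.8, 22.9 and 21.6 CPM at 0.01 µM, 23.3, 26.9 and 17.1 at 0.1 µM and 22.3, 25.2 and 21.9 at 1 µM. At 10 µM they were 29.6, 26.3 and 24.1 CPM, at 100 µM 21.3, 21.7 and 27.4, and at 1000 µM 26.4, 25.4 and 29.7. The treated groups overlapped with one another, while no treated library reached down to a control. The change at 1000 µM was 0.79 ± 0.15 (log2 ± SE; edgeR adjusted p 0.000578), a rise of 1.73-fold, and at 10 µM it was 0.77 ± 0.15 (adjusted p 0.00464). The changes at 0.01, 0.1, 1 and 100 µM were 0.66, 0.52, 0.56 and 0.58, with edgeR adjusted p of 0.0392, 0.143, 0.0849 and 0.0367. Against the mean of 0.01, 0.1 and 1 µM the value at 1000 µM was 0.21 ± 0.12 (edgeR adjusted p 0.201), so a difference among the treated doses was not shown.

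Leaving out single libraries kept CLOCK called at 10 and 1000 µM in all 6 fits each. At 0.01 µM the call was lost without replicate 1 or 2 of the controls (edgeR adjusted p 0.173 and 0.145) or of 0.01 µM (0.122 and 0.0598). At 100 µM it was lost without 0 µM replicate 1 (0.142) or 2 (0.143) and without 100 µM replicate 1 (0.0525), 2 (0.086) or 3 (0.201). The test among the 7 groups (edgeR adjusted p 0.013) lost CLOCK without 0 µM replicate 1 (0.0756) or 2 (0.0576), and the slope of 0.08 per step (0.0193) lost it without any of the 3 controls or 1000 µM replicate 3, with values up to 0.0629. Over the 18 treated libraries alone the slope of CLOCK was 0.031 per step and not called (edgeR adjusted p 0.499). It was also lost over the 18 libraries below 1000 µM (0.117) and on the linear dose (0.22). TMEM165 of the opposite strand shares 0.65% of the exon bases of CLOCK and had a log2 fold change of 0.26 at 1000 µM (edgeR adjusted p 0.15).

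The PER genes encode the period proteins, which form the repressor complex with the cryptochromes. PER1 (ENSG00000179094.16, chr17:8140472-8156506, minus strand), which also responds early to cAMP and glucocorticoid signals, was lowest at 1000 µM. Its levels were 11.5, 13.3 and 10.7 CPM at 0 µM, 12.1, 14.9 and 11.8 at 0.01 µM, 12.3, 14.3 and 12.3 at 0.1 µM and 12.5, 14.7 and 17.3 at 1 µM. The libraries at 10 µM had 17.0, 15.6 and 12.7 CPM, those at 100 µM 11.2, 13.1 and 13.7 and those at 1000 µM 10.7, 7.46 and 8.34. All doses below 1000 µM overlapped with the controls, and the highest library at 1000 µM, at 10.65 CPM, was just below the lowest control, at 10.69 CPM. PER1 was lower at 1000 µM by -0.43 ± 0.16 against 0 µM (log2 ± SE; edgeR adjusted p 0.036) and by -0.62 ± 0.13 against the mean of 0.01, 0.1 and 1 µM (edgeR adjusted p 0.00158).

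The difference of PER1 from the controls was lost in 4 of 6 fits, without 0 µM replicate 1 (edgeR adjusted p 0.0652) or 2 (0.15) and without 1000 µM replicate 2 (0.179) or 3 (0.115). It was also lost without the filter on low counts (0.0742) and with the 6 samples alone (0.0577), whereas the difference from the 3 lowest doses stayed called in all 12 fits that left out 1 library. The test among the 7 groups (edgeR adjusted p 0.0156) lost PER1 without 1000 µM replicate 2 (0.0776) or 3 (0.0759). PER1 is uncertain because AC129492.3 of the same strand shares 0.43% of its exon bases. That gene had 1 to 45 counts per library, where PER1 had 263 to 576, and its means at 0 and 1000 µM were 0.465 ± 0.16 and 0.705 ± 0.35 CPM (SD, n = 3; edgeR adjusted p 0.321).

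PER2 (ENSG00000132326.12, chr2:238244038-238290102, minus strand), the period gene most bound up with the core loop, was lowest in the controls. Its levels were 9.40, 11.7 and 10.9 CPM at 0 µM, 14.4, 16.0 and 13.9 at 0.01 µM, 13.4, 15.1 and 12.1 at 0.1 µM and 12.01, 17.0 and 15.0 at 1 µM. The 3 highest doses gave 15.3, 16.9 and 15.0 CPM at 10 µM, 12.2, 13.5 and 15.4 at 100 µM and 14.6, 12.1 and 13.0 at 1000 µM. All 18 treated libraries were above the highest control, though by as little as 12.01 against 11.72 CPM. PER2 rose by 0.56 ± 0.13 at 10 µM (log2 ± SE; edgeR adjusted p 0.00843), a call lost without 0 µM replicate 1 (0.0557). At 0.01, 0.1, 1, 100 and 1000 µM its changes were 0.47, 0.34, 0.45, 0.35 and 0.31, with edgeR adjusted p of 0.0504, 0.238, 0.0859, 0.105 and 0.0704. DESeq2 called PER2 as higher at 0.01 µM (DESeq2 adjusted p 0.01), 1 µM (0.019) and 1000 µM (0.0463). With RLE size factors edgeR called it at 0.01 µM (edgeR adjusted p 0.0422). Against the mean of 0.01, 0.1 and 1 µM the value at 1000 µM was -0.11 ± 0.11 (edgeR adjusted p 0.467).

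PER3 (ENSG00000049246.14, chr1:7784320-7845177, plus strand), which is dispensable for the core loop and cycles strongly in many tissues, stood highest at 10 µM and low at both ends of the range. Its levels were 4.15, 3.80 and 4.02 CPM at 0 µM, 5.15, 6.49 and 5.22 at 0.01 µM, 5.71, 6.13 and 3.74 at 0.1 µM and 4.96, 6.64 and 5.62 at 1 µM. At 10 µM they were 6.75, 6.20 and 5.68 CPM, at 100 µM 4.31, 4.61 and 5.34, and at 1000 µM 4.22, 3.57 and 3.96. The controls and the libraries at 1000 µM overlapped, and the libraries at 10 µM were above both. PER3 rose by 0.64 ± 0.17 at 10 µM (log2 ± SE; edgeR adjusted p 0.0125), and at 1000 µM it was lower than at the 3 lowest doses by -0.49 ± 0.14 (edgeR adjusted p 0.0113). Its value at 1000 µM against 0 µM was -0.026 ± 0.17 (edgeR adjusted p 0.915). The rise at 10 µM was lost without 10 µM replicate 1 (edgeR adjusted p 0.0612). The fall at 1000 µM was lost without 1000 µM replicate 2 (0.0703) and with the 12 samples compared alone (0.0502). The test among the 7 groups (0.0205) lost PER3 without 0 µM replicate 2 (0.0524) or 1000 µM replicate 3 (0.0526). The genes of the opposite strand that share exon bases with PER3, UTS2 and Z98884.1, had 0 to 1 and 0 to 2 counts per library.

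CRY1 (ENSG00000008405.12, chr12:106991364-107093829, minus strand), a cryptochrome that blocks CLOCK and BMAL1, was called against 0 µM at the top dose alone. Its levels were 16.1, 16.5 and 18.9 CPM at 0 µM, 20.6, 15.0 and 18.7 at 0.01 µM, 19.8, 17.3 and 15.8 at 0.1 µM and 18.6, 16.7 and 13.8 at 1 µM. The libraries at 10 µM had 15.5, 14.8 and 18.1 CPM, those at 100 µM 17.4, 17.5 and 18.3 and those at 1000 µM 25.4, 29.4 and 29.2. The 18 libraries below 1000 µM lay between 13.8 and 20.6 CPM, and all 3 at 1000 µM were above them. The rise at 1000 µM was 0.71 ± 0.13 against 0 µM (log2 ± SE; edgeR adjusted p 0.00039), or 1.63-fold, and 0.69 ± 0.10 against the mean of 0.01, 0.1 and 1 µM (edgeR adjusted p 5.87e-05). Both calls stayed in every fit that left out 1 library. At the 5 lower doses the changes against 0 µM lay between -0.09 and 0.08, with edgeR adjusted p of 0.67 or more. The slope of 0.08 per step (edgeR adjusted p 0.0319) was -0.010 over the 18 libraries below 1000 µM, and it was lost without 0 µM replicate 1 or 2 or any library at 1000 µM, with values up to 0.126. It was also lost over the 18 treated libraries alone (edgeR adjusted p 0.0681).

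CRY2 (ENSG00000121671.11, chr11:45847118-45883248, plus strand), the second cryptochrome, was called at no dose in the edgeR fit of all 21 libraries. Its levels were 12.8, 14.8 and 13.4 CPM at 0 µM, 14.3, 14.4 and 18.3 at 0.01 µM, 15.1, 16.6 and 15.1 at 0.1 µM and 15.3, 19.2 and 17.3 at 1 µM. The 3 highest doses gave 16.5, 16.8 and 16.4 CPM at 10 µM, 14.7, 15.0 and 16.5 at 100 µM and 16.2, 16.1 and 15.3 at 1000 µM. The treated libraries stood mostly above the controls, with overlap at 0.01 and 100 µM. The largest change was 0.34 ± 0.11 at 1 µM (log2 ± SE; edgeR adjusted p 0.0926), that at 1000 µM was 0.22 ± 0.11 (0.109), and that against the mean of 0.01, 0.1 and 1 µM was -0.026 ± 0.09 (0.849). Other fits called CRY2 as higher: DESeq2 at 1 µM (DESeq2 adjusted p 0.0245) and 10 µM (0.0394), and edgeR at 10 µM with the 6 samples alone (0.043) and at 1 µM without 1 µM replicate 1 (0.039).

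NR1D1 (ENSG00000126368.6, chr17:40092787-40100725, minus strand) encodes REV-ERB alpha, the nuclear receptor that represses BMAL1, and varied more between replicates than between doses. Its levels were 8.50, 10.0 and 7.82 CPM at 0 µM, 8.26, 9.66 and 8.87 at 0.01 µM, 7.22, 7.84 and 7.24 at 0.1 µM and 6.10, 9.37 and 13.0 at 1 µM. At 10 µM they were 10.9, 10.0 and 7.76 CPM, at 100 µM 8.45, 10.1 and 10.8, and at 1000 µM 12.1, 6.92 and 8.94. Every dose overlapped with the controls. The change at 1000 µM was 0.08 ± 0.22 (log2 ± SE; edgeR adjusted p 0.792), and the edgeR adjusted p among the 7 groups was 0.716. The library at 1 µM with 6.10 CPM had a mitochondrial share of 4.95% and that with 13.0 CPM one of 14.2%, the lowest and the highest of the series. Not all libraries followed this order: 0.01 µM replicate 1 had 8.26 CPM at a share of 11.7%, and 1000 µM replicate 1 had 12.1 CPM at 8.73%. THRA of the opposite strand shares 9.49% of the exon bases of NR1D1 and had a log2 fold change of 0.27 at 1000 µM (edgeR adjusted p 0.129). With the mitochondrial share as a covariate, the change at 1000 µM was -0.051 (edgeR adjusted p 0.822). The part of THRA in the values of NR1D1 was not tested, and neither was a relation of NR1D1 to the mitochondrial share over the libraries.

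NR1D2 (ENSG00000174738.13, chr3:23945260-23980618, plus strand) encodes REV-ERB beta, the partner repressor, and rose most at 1000 µM. Its levels were 19.1, 16.7 and 17.8 CPM at 0 µM, 31.4, 22.6 and 22.6 at 0.01 µM, 23.7, 24.5 and 18.1 at 0.1 µM and 25.6, 22.7 and 23.8 at 1 µM. The libraries at 10 µM had 24.3, 23.7 and 26.6 CPM, those at 100 µM 28.9, 24.5 and 27.1 and those at 1000 µM 31.39, 33.6 and 36.8. Only 1 treated library, at 0.1 µM, overlapped with the controls, and the lowest library at 1000 µM was level with the highest at 0.01 µM, 31.39 against 31.38 CPM. The rise at 1000 µM was 0.93 ± 0.13 (log2 ± SE; edgeR adjusted p 3.85e-05), or 1.90-fold, and 0.51 ± 0.10 against the mean of 0.01, 0.1 and 1 µM (edgeR adjusted p 0.00108). Both stayed called in every fit that left out 1 library, and so did the slope of 0.11 per step (edgeR adjusted p 0.000954). Over the 18 libraries below 1000 µM the slope of NR1D2 was 0.08 per step and not called (edgeR adjusted p 0.0709).

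The calls of NR1D2 at the lower doses rested on few libraries. From 0.01 to 100 µM the changes were 0.51, 0.31, 0.43, 0.48 and 0.59, with edgeR adjusted p of 0.0406, 0.282, 0.0916, 0.017 and 0.0235. At 0.01 µM the call was lost without any of the 3 controls (edgeR adjusted p 0.0564 to 0.173) or 0.01 µM replicate 1 (0.138) or 2 (0.0598). At 100 µM it was lost without 0 µM replicate 1 (0.0739) or 2 (0.134) or any library at 100 µM (0.0595 to 0.117). At 10 µM it was lost without 0 µM replicate 2 (0.0705), 10 µM replicate 1 (0.0509) or 10 µM replicate 3 (0.0511).

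DBP (ENSG00000105516.10, chr19:48630030-48637438, minus strand), the D-box activator driven by CLOCK and BMAL1, had the largest change of the 10 genes at 1000 µM and was lower in all 18 treated libraries. Its levels were 3.81, 3.54 and 3.38 CPM at 0 µM (106 to 114 counts), 2.36, 3.03 and 3.05 at 0.01 µM, 2.91, 2.39 and 2.94 at 0.1 µM and 2.10, 2.89 and 2.78 at 1 µM. The 3 highest doses gave 2.25, 2.63 and 2.44 CPM at 10 µM, 2.86, 2.42 and 1.71 at 100 µM and 1.496, 1.21 and 1.40 (44 to 51 counts) at 1000 µM. All treated libraries were below all controls, and all 3 at 1000 µM below all others, while the doses from 0.01 to 100 µM overlapped with one another. The change at 1000 µM was -1.39 ± 0.19 (log2 ± SE; edgeR adjusted p 2.22e-05), which leaves 0.382 of the control level, and -0.99 ± 0.16 against the mean of 0.01, 0.1 and 1 µM (edgeR adjusted p 0.000141). These calls stayed in every fit that left out 1 library.

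Below 1000 µM the changes of DBP were -0.35, -0.38, -0.47, -0.55 and -0.62 in order of dose, with edgeR adjusted p of 0.234, 0.322, 0.139, 0.0361 and 0.0504. The call at 10 µM was lost without 0 µM replicate 1 (edgeR adjusted p 0.125) or 2 (0.0806), any library at 10 µM (0.0677 to 0.133) or the filter on low counts (0.129). It was also lost with the mitochondrial share as a covariate (edgeR adjusted p 0.0507) and with a replicate block (0.0547). At 100 µM DBP was called by DESeq2 (DESeq2 adjusted p 0.0261), and by edgeR with that covariate (0.0488), with the 6 samples alone (0.0432) and without 100 µM replicate 1 (0.048). The slope was -0.17 ± 0.03 per step (edgeR adjusted p 0.000502). SPHK2, a sphingosine kinase gene of the opposite strand, shares 10.1% of the exon bases of DBP and was lower at 1000 µM as well, at 17.0 ± 3.28 CPM against 27.2 ± 1.18 at 0 µM (SD, n = 3; edgeR adjusted p 0.00579). Whether the counting used strand is not given in the sources used here, so reads of the shared bases cannot be told apart, and the part of SPHK2 in the change of DBP was not tested.

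BHLHE40 (ENSG00000134107.4, chr3:4979116-4985323, plus strand), the E-box repressor, was higher at 1000 µM than at the lowest doses but not called against 0 µM. Its levels were 21.2, 21.7 and 25.7 CPM at 0 µM, 17.6, 23.9 and 21.9 at 0.01 µM, 20.6, 19.1 and 18.5 at 0.1 µM and 18.3, 24.5 and 25.1 at 1 µM. At 10 µM they were 25.4, 28.8 and 23.2 CPM, at 100 µM 23.5, 25.2 and 27.0, and at 1000 µM 32.2, 24.3 and 24.8. Only the 3 libraries at 0.1 µM did not overlap with the controls. No dose was called against 0 µM, with a change of 0.24 ± 0.14 at 1000 µM (log2 ± SE; edgeR adjusted p 0.18). The rise at 1000 µM against the mean of 0.01, 0.1 and 1 µM was 0.37 ± 0.11 (edgeR adjusted p 0.021) and the slope 0.06 ± 0.02 per step (0.0334). The rise was lost without 1000 µM replicate 1 (edgeR adjusted p 0.157), the library at 32.2 CPM, and with the 12 samples compared alone (0.059). The slope was lost without 0 µM replicate 1, 100 µM replicate 3 or 1000 µM replicate 1, with values from 0.0529 to 0.0997. It was also lost over the 18 libraries below 1000 µM (edgeR adjusted p 0.201) and on the linear dose (0.0987).

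**Figure D2:**
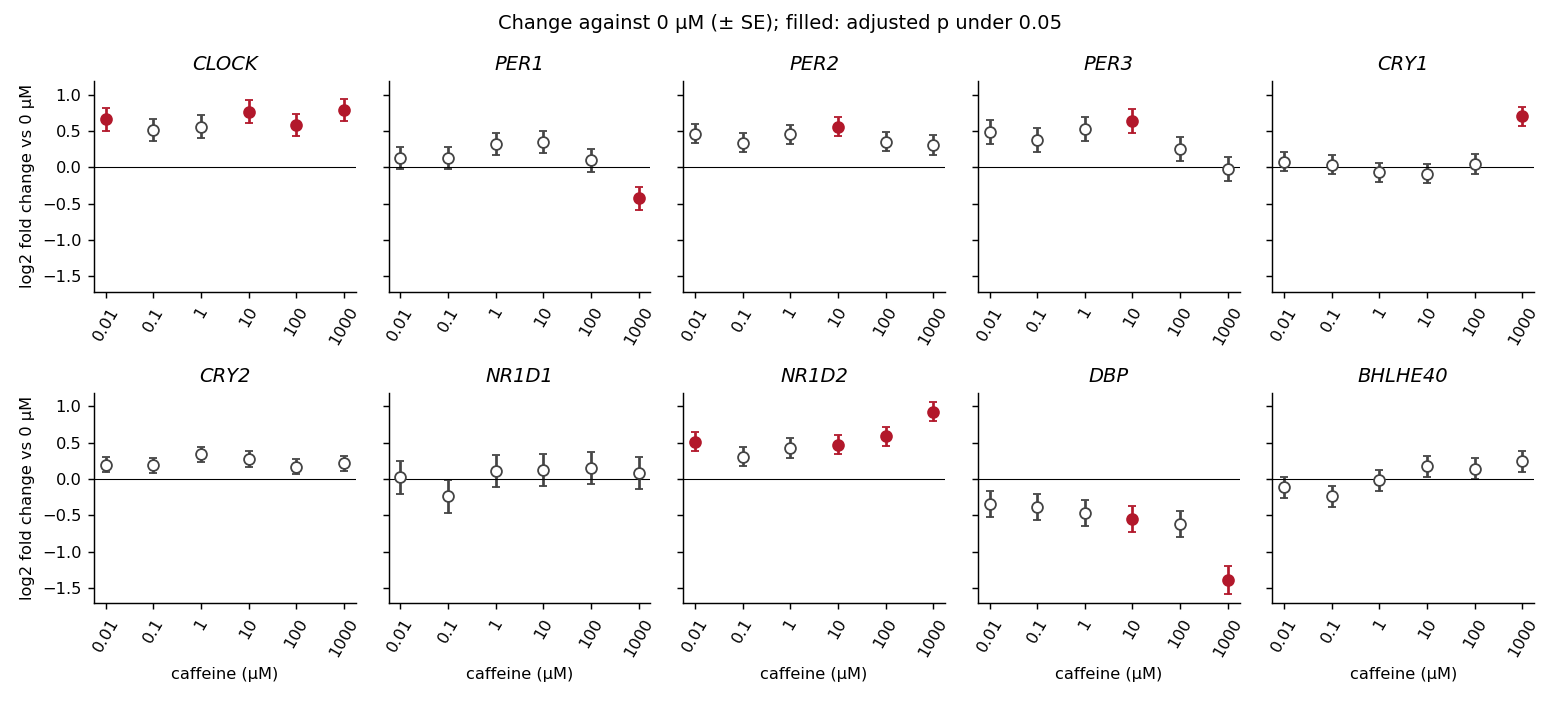
Log2 fold change of each clock gene against 0 µM (points) with its SE (bars) at each caffeine dose in µM; filled points are called at an edgeR adjusted p under 0.05. CLOCK and NR1D2 lie above 0 at every dose and DBP below it, whereas CRY1 stays near 0 up to 100 µM and is at 0.71 at 1000 µM.

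**Figure D3:**
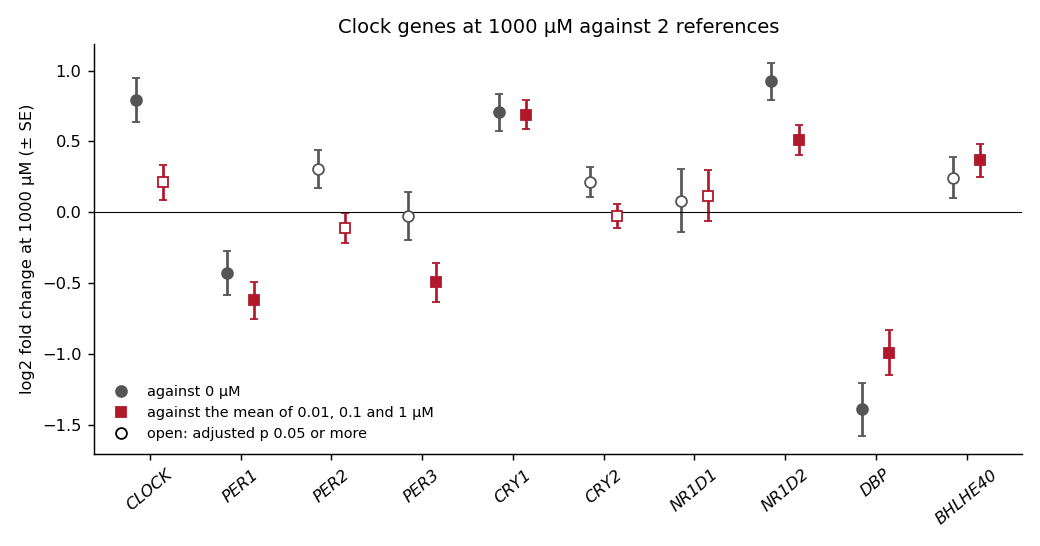
Log2 fold change at 1000 µM with its SE against 0 µM (circles) and against the mean of 0.01, 0.1 and 1 µM (squares); filled symbols are called. CRY1 has nearly the same value with either reference (0.71 and 0.69), CLOCK is at 0.79 and 0.21, and PER3 at -0.026 and -0.49.

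Paralogs of the same role were compared within each library, as the difference of their log2 CPM, by a two-sided permutation test among the 7 groups (100000 permutations, Benjamini-Hochberg adjustment over 4 pairs). PER1 and PER2 changed unequally (permutation p 0.00093, adjusted 0.00372): PER1 minus PER2 was 0.15 ± 0.17 at 0 µM and -0.60 ± 0.13 at 1000 µM (SD, n = 3), a change of -0.74. CRY1 and CRY2 also changed unequally (permutation p 0.00255, adjusted 0.0051), from 0.33 ± 0.17 to 0.81 ± 0.15, a change of 0.49. In both pairs the 3 libraries at 1000 µM lay beyond all 18 others. PER2 and PER3 (permutation p 0.0476, adjusted 0.0635) and NR1D1 and NR1D2 (permutation p 0.298, adjusted 0.298) did not pass, with changes of 0.34 and -0.87 between 0 and 1000 µM. Exact permutation tests of 1000 µM against 0 µM alone gave p = 0.1 in all 4 pairs, the smallest value that 3 against 3 libraries allow. Without the libraries at 1000 µM neither unequal change passed, with an adjusted permutation p of 0.438 for each. The pair of PER1 and PER2 carries the uncertainty of PER1 named above.

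**Figure D4:**
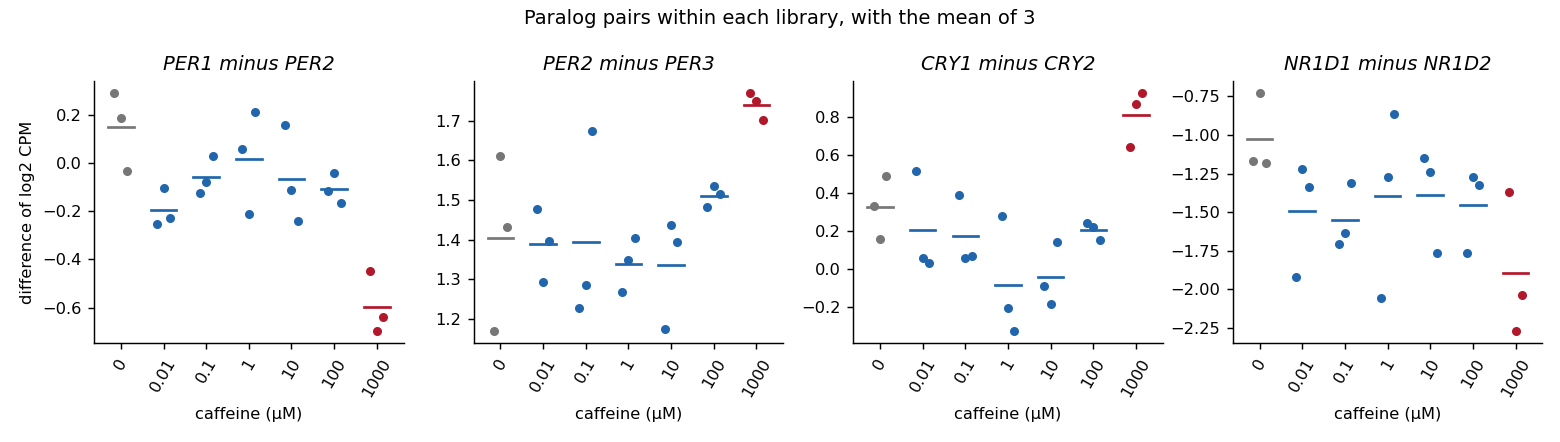
Difference of log2 CPM between paralogs (first minus second) in each of the 21 libraries, by caffeine dose in µM; points are libraries, bars the means of 3, and the vertical axes differ between panels. PER1 minus PER2 is lowest at 1000 µM (-0.70 to -0.45) and CRY1 minus CRY2 highest (0.64 to 0.93).

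Another 21 clock genes, listed by role, were read in the same fit. Of these 19 were tested, RORB had 0 counts in all libraries and BHLHE41 0 to 3. At 1000 µM 8 of 19 were called, 6 higher and 2 lower, beside the 41.2% of all features, with a median log2 fold change of 0.11 against -0.03. Of the kinases and ubiquitin ligase parts that set the life time of PER and CRY proteins, FBXW11, BTRC and CSNK1E rose. FBXW11, which marks PER proteins for degradation, rose from 43.0 ± 3.47 to 74.0 ± 4.38 CPM (SD, n = 3), a change of 0.78 ± 0.11 (log2 ± SE; edgeR adjusted p 3.3e-05). Its paralog BTRC rose by 0.39 ± 0.08 (0.000945) and the casein kinase gene CSNK1E by 0.50 ± 0.15 (0.0119). CSNK1E shares 21.1% of its exon bases with a readthrough gene of its own strand, so its counts are uncertain. CSNK1D was at 0.28 ± 0.11 (edgeR adjusted p 0.0574) and FBXL21P at 0.42 ± 0.34 (0.337). FBXL21P is annotated as a pseudogene and had only 11 to 59 counts per library.

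RORA, a receptor that activates BMAL1 through the element that REV-ERB proteins repress, rose by 0.52 ± 0.16 (log2 ± SE; edgeR adjusted p 0.0144). At 0.01 µM its change was already 0.51 ± 0.16 (edgeR adjusted p 0.0616). Against the mean of 0.01, 0.1 and 1 µM RORA was at 0.10 ± 0.13 at 1000 µM (0.576), so a difference from these doses was not shown. Neither the test among the 7 groups (0.157) nor the slope (0.238) called RORA. The call of RORA was lost without 0 µM replicate 1 (edgeR adjusted p 0.057), 0 µM replicate 2 (0.0532) or 1000 µM replicate 3 (0.0862). Of 3 output genes, USP2, a deubiquitinase gene driven by the clock in liver, fell from 32.3 ± 0.95 to 15.6 ± 3.67 CPM, a change of -1.06 ± 0.14 (edgeR adjusted p 1.9e-05), while at 10 µM it was at 34.1 ± 2.79 CPM. An antisense gene shares 17.5% of its exon bases. NAMPT, the rate-limiting enzyme of NAD salvage, rose by 0.37 ± 0.11 (edgeR adjusted p 0.0117), a call lost without 0 µM replicate 2 (0.0623) or 1000 µM replicate 3 (0.0776), and WEE1 was at 0.08 ± 0.10 (0.539). Of the exon bases of NAMPT, 8.69% are shared with an antisense gene.

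The partners of CLOCK and of DBP were not called at 1000 µM against 0 µM. Against the mean of 0.01, 0.1 and 1 µM, BMAL1 was lower by -0.37 ± 0.10 (log2 ± SE; edgeR adjusted p 0.00959) and TEF by -0.35 ± 0.12 (0.0334). BMAL1 was at 6.15 ± 0.90 CPM at 0 µM, 8.09 ± 0.79 at 10 µM and 5.59 ± 0.18 at 1000 µM (SD, n = 3). It was called at 10 µM (0.39 ± 0.12, log2 ± SE; edgeR adjusted p 0.0275) and among the 7 groups (0.0219). The alternative activators BMAL2 and NPAS2 had changes of -0.26 (edgeR adjusted p 0.185) and 0.029 (0.911) at 1000 µM. Among the D-box factors TEF, HLF and the repressor NFIL3, 0 of 3 were called at 1000 µM against 0 µM. There HLF was at 0.11 (edgeR adjusted p 0.305), TEF at -0.10 (0.624) and NFIL3 at -0.24 (0.0552), beside -1.39 for DBP. At 10 µM HLF was called as higher (0.22, edgeR adjusted p 0.0499) and NFIL3 as lower (-0.28, 0.0485), while TEF was not called (0.15, 0.494). A falling slope was called for NFIL3 (-0.044 per step, edgeR adjusted p 0.014). Among the 7 groups 6 of the 19 genes were called, beside the 28.1% of all features, among them BMAL1, CSNK1E (edgeR adjusted p 0.0354), BTRC (0.014), FBXW11 (0.00181) and USP2 (9.02e-05).

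**Figure D5:**
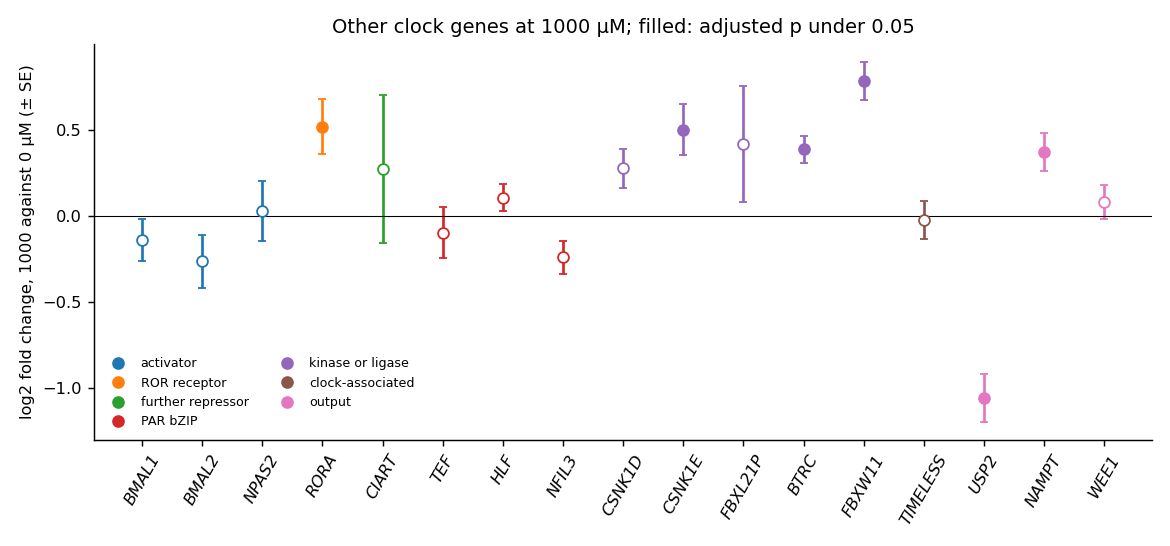
Log2 fold change at 1000 against 0 µM with its SE for further clock genes, coloured by role; filled points are called at an edgeR adjusted p under 0.05. FBXW11 is highest among the called genes at 0.78 and USP2 lowest at -1.06.

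For each of the 10 genes, the 3 features with a symbol and the highest Pearson r of log2 CPM over the 21 libraries are given as a description; the points share libraries, depth and the 7 groups, and no test was made. CLOCK went with ASPM, UBN2 and TUG1 (r from 0.963 to 0.967), PER1 with TTBK1, TRIM14 and ESRP2 (0.939 to 0.951), PER2 with ZNF142, MICAL3 and MDC1 (0.946 to 0.95) and PER3 with SORBS2, PEG10 and PLEKHH1 (0.903 to 0.922). CRY1 went with SPRED1, GCLM and CDC14B (0.956 to 0.962) and NR1D2 with TMEM39A, ECT2 and FAM76B (0.946 to 0.96). NR1D1 went with PNKD, FOXP4 and DLGAP4 (0.934 to 0.948), DBP with C2CD4A, SOCS1 and B3GALT6 (0.929 to 0.945) and BHLHE40 with VEGFA, KLC2 and ZNF777 (0.903 to 0.908). CRY2 had the lowest leading values, with RPRD1B, CELSR2 and KATNIP (0.773 to 0.826).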

How the data were processed

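The authors deposited 1 table of raw, whole-number counts for each gene, from poly(dT)-selected RNA of 21 HepG2 samples, 3 at each of 7 caffeine doses after 6 h. HISAT2, DESeq2 and the build GRCh38 are named, per the submitters' processing notes, with no role given. The counting program, its annotation and its use of strand are not given in the sources used here. A further 21 columns of the table carry names of no sample listed here and were left out.

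From the counts, CPM were computed with TMM scaling, and edgeR 4.0.16 (R 4.3.3) fitted its quasi-likelihood model to all 7 groups with 14 residual degrees of freedom, after its expression filter at a minimum count of 10. Benjamini-Hochberg adjustment was over all 17468 features. Each standard error is the absolute log2 fold change over the root of its F statistic. Within-library differences used log2 CPM with a prior count of 2. Positions, exon lengths and overlaps come from GENCODE v29 on GRCh38, matched by gene ID without the version, and promoter sequences from RefSeq.

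The 10 genes, the 21 further clock genes and the markers were chosen with earlier results of these data known. All 10 genes are named. Further clock genes are named where called at 1000 µM or among the groups, beside others of the same role whose values are given for comparison, and some genes of that list are counted but not reported here. The scripts were tested on simulated data. Alternatives were DESeq2 1.42.0, RLE size factors, no filter, only the groups compared, a replicate block, the mitochondrial share as a covariate, other dose scales, fewer groups and leaving out each library. Intervals of depth cover counting error only, since no molecular identifiers are given in the sources used here. Nothing beyond the series text shows that replicates were separate cultures, and p-values measure only the spread between these samples.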

Additional observations from a re-analysis of the deposited data

How the results depend on the processing

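Against 0 µM at 1000 µM, CLOCK, CRY1, NR1D2 and DBP kept their direction and their call under every alternative run, and against the mean of 0.01, 0.1 and 1 µM so did PER1, CRY1, NR1D2 and DBP. Where no cause is given, the cause was not tested. The alternatives for the other clock genes were chosen after seeing the data. Under those that did not leave out single libraries, 8 or 9 of these genes were called, and with 1 library left out 6 to 9. Depth limits DBP most, with 44 to 114 counts per library.

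At 0.01, 0.1 and 1 µM, DESeq2 called 4, 1 and 5 of the 10 genes (12.5%, 2.93% and 8.08% of all features) and edgeR 2, 0 and 0 (4.95%, 0% and 0%). At 0.01 µM the mitochondrial covariate and the 6 samples alone each called 0. Without the libraries at 1000 µM, the test among the groups called 0 genes and that of the slope 1, and with the 18 treated libraries alone 3 had a slope. On the linear dose a falling slope was called for PER1 (-0.616 per 1000 µM, edgeR adjusted p 0.00126) and PER3 (-0.44, 0.0464). Neither had a called slope over the dose ranks (edgeR adjusted p 0.438 and 0.829). Without the libraries at 1000 µM the adjusted permutation p was 0.438 for the pair of CRY1 and CRY2 and 0.438 for that of PER1 and PER2; these fits have fewer samples.

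Replicate numbers are shared between the groups, but the labels do not say that they pair samples. Over 63 pairs of groups and numbers, the deviations of same-numbered libraries correlated at -0.437 to 0.249, 11 pairs were above 0.1, and 5 of 21 libraries were closest to their own number. The fit with the replicate number as a block called 0, 4, 1 and 5 genes at 0.01, 10, 100 and 1000 µM, 6 among the groups, 5 with a slope and 6 against the mean of 0.01, 0.1 and 1 µM.

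With each library left out in turn, the genes called against 0 µM numbered 0 to 3, 0 to 2, 0 to 4, 2 to 5, 0 to 2 and 4 to 5 in order of dose. It gave 5 to 6 against the mean of 0.01, 0.1 and 1 µM, 4 to 8 among the groups, 2 to 5 with a slope and 6 to 9 of the other clock genes. The adjusted permutation p then ran from 0.00184 to 0.0274 for CRY1 and CRY2, 0.0018 to 0.0174 for PER1 and PER2, 0.00808 to 0.183 for PER2 and PER3 and 0.101 to 0.563 for NR1D1 and NR1D2.

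Signs turned only for log2 changes that were not called, apart from the slope of CRY1. BHLHE40 at 1 µM became 0.002 with DESeq2, 0.003 with RLE size factors, 0.007 with no filter and 0.003 with the 6 samples alone. PER3 at 1000 µM became 0.006 with no filter. NR1D1 with the mitochondrial covariate became -0.147, -0.106, -0.077 and -0.051 at 0.01, 1, 10 and 1000 µM. Without the libraries at 1000 µM the slopes became -0.010 for CRY1, 0.041 for PER1 and 0.052 for PER3. With the treated libraries alone they became -0.001 for CRY2 and -0.018 for PER2, and on the linear dose that of PER2 became -0.064. With 1 library left out, BHLHE40 at 0.01 and 1 µM lay between -0.21 and 0.003 and between -0.086 and 0.128. CRY1 at 0.01, 0.1 and 1 µM lay between -0.026 and 0.193, -0.047 and 0.12, and -0.16 and 0.051. CRY2 against the mean of 0.01, 0.1 and 1 µM ran from -0.046 to 0.026. NR1D1 at 0.01, 1 and 1000 µM lay between -0.042 and 0.131, -0.176 and 0.361, and -0.123 and 0.28, and between -0.1 and 0.304 against the mean of 0.01, 0.1 and 1 µM. PER3 ran from -0.06 to 0.06 at 1000 µM, and its slope from -0.029 to 0.009.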
